A study of Schizosaccharomyces pombe with 3 samples.

Results

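The genes described here act in mating and pheromone response in the fission yeast *Schizosaccharomyces pombe*. They are mam2 (pheromone receptor), mam3 (cell agglutination), rgs1 (regulator of the pheromone G protein) and mat3-Mc (mating-type M regulator). These 4 genes were taken by name, whatever their level, out of 444 genes that have an entry in the deposited tables. The wild type strain 972h- was grown to mid-log phase in Synthetic Dextrose medium with 3% glucose (T1), 5% glucose (T2) or 8% glucose (T3), and no sample carried any other mutation or treatment. Polyadenylated RNA was sequenced as 1 library per concentration, pooled from 3 cultures, so no difference has a replicate check and no p-value is given. The tables hold only genes that the authors list as differing between a pair of samples, with estimated counts and FPKM values (fragments per kilobase of gene length, scaled to library size). A fit of counts and FPKM values to gene length gave library scaling values of 5744837 (T1), 5888032 (T2) and 5819042 (T3) fragments. These are fitted values and not counts of the reads sequenced. A gene without an entry has no value here, and 177 of the 444 genes have values in all 3 samples.

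In fission yeast, haploid cells of mating types M and P find each other by peptide pheromones, usually when nutrients, and above all nitrogen, run out. M cells secrete M-factor and sense P-factor through the receptor Mam2. The receptor signals through the G protein alpha subunit Gpa1, Ras1 and a MAP kinase cascade ending in Spk1, while Rgs1 turns the G protein signal down. The transcription factor Ste11 drives many of these genes from short elements called TR boxes, and in M cells the mating-type protein Mc helps to switch on M-specific genes such as mam2 and mam3. The label h- denotes an M strain, so a pure culture of it holds no P partners. Of 9 markers of M cells, mam2, mam3 and sxa2 had an entry. None of 6 markers of P cells had one, of which 4 are in the assembly used to name the entries, and their levels are therefore unknown here.

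The pheromone receptor, the adhesin and the G protein regulator were all higher at 8% glucose than at 3%, by 2.76-fold to 5.04-fold. The mating-type M entry went the other way and was at 0 counts at 8%. Of all 367 genes in the T3 vs T1 table, 64.0% were higher in T3 and 36.0% were lower, each by at least 2-fold, so that 3 higher and 1 lower among 4 is close to the make-up of the table. Folds are ratios of FPKM values. Their 95% exact Clopper-Pearson intervals come from the 2 rounded counts and cover counting error only, not differences between cultures. In RNA from whole cultures, more cells expressing a gene and more RNA per cell cannot be told apart.

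**Figure D1:**
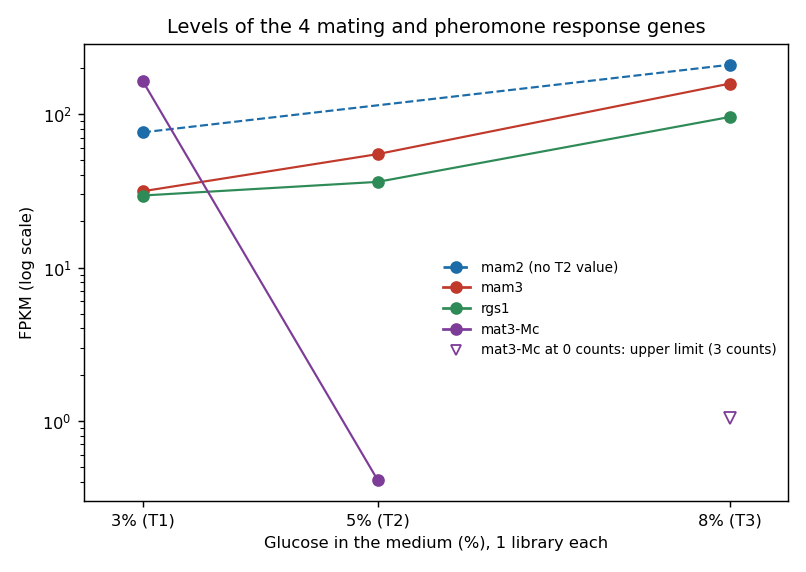
FPKM (log scale) of mam2, mam3, rgs1 and mat3-Mc against the glucose percentage, 1 library per point. The levels of mam3 and rgs1 are higher at each glucose step and mam2, which has no T2 value, is higher at 8% than at 3%, while mat3-Mc is at 163.9 FPKM in T1, 0.41 FPKM in T2 and 0 counts in T3 (open triangle, the level of 3 counts as an upper limit).

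The receptor gene mam2 had 210.6 FPKM (2018 counts) in T3 and 76.3 FPKM (717 counts) in T1. It has no T2 value, since it was listed in the T3 vs T1 table alone. Expression was 2.76-fold higher in T3 (95% interval 2.53 to 3.01), rank 95 among the 235 higher genes of that table. By level, mam2 was the most abundant of the 4 genes in T3, above 88.7% of the 423 entries with a T3 value. In T1 it was above 71.8% of 404 entries and stood below mat3-Mc. In assembly ASM294v3 mam2 lies at chrI:4780688-4781922 on the plus strand without introns, and no other annotated gene overlaps it.

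The adhesin gene mam3, whose product lets M cells stick to P cells, had 31.5 FPKM in T1, 55.0 in T2 and 158.7 in T3. Its order across the samples was steadily upward, which it shared with 44.6% of the 177 genes that have all 3 values. The T3 level exceeded T1 by 5.04-fold (95% interval 4.65 to 5.48) and this ratio ranked 26 among 235 higher genes. Only 10.4% of the table was at least 4-fold higher in T3, and among the genes of mating and pheromone response mam3 alone passed that mark. The ratio of T3 to T2 was 2.89 (2.71 to 3.08), rank 19 of 80 higher genes. Between T2 and T1, where mam3 was not listed, the ratio was 1.75 (1.59 to 1.92). Of the 87 genes listed there, 70.1% were at least 2-fold higher in T2 and 17.2% at least 4-fold. The gene lies at chrI:1856833-1860689 on the minus strand without introns, and 72 bases overlap SPAP11E10.01 on the opposite strand. The entry was matched to mam3 by its description, since its accession is not in the assembly.

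The gene rgs1, whose product speeds GTP hydrolysis by the pheromone G protein, had 29.5 FPKM in T1, 36.2 in T2 and 96.0 in T3. In T1 its level was next to that of mam3, whereas in T3 mam3 stood well above it. The T3 level was 3.25-fold above T1 (95% interval 2.93 to 3.62) and 2.65-fold above T2 (2.41 to 2.92). T2 stood 1.23-fold above T1 (1.09 to 1.39), which was not listed. Its T3 to T1 interval lay wholly below that of mam3 and overlapped that of mam2. The gene lies at chrI:679803-681890 on the plus strand without introns. A long noncoding RNA on the opposite strand, SPNCRNA.675, overlaps 678 bases of it, and no source used here says that reads were assigned by strand.

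The sizes of the 2 glucose steps can be given for mam3, rgs1, spk1 and dni2. All of them have a T2 value because they were listed in T3 vs T2, and none was listed in T2 vs T1. A second step of at least 2-fold that exceeds the first was therefore set by the tables and is no finding. On the log2 scale mam3 was 0.80 higher in T2 than in T1 and 1.53 higher in T3 than in T2, and for rgs1 these values were 0.30 and 1.41. From 5% to 8% glucose the intervals of mam3 and rgs1 overlapped, whereas from 3% to 5% that of mam3 lay above that of rgs1. The T2 library is part of both steps of a gene, so a chance deviation in T2 moves the steps in opposite directions. The second step also spans more glucose than the first.

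**Figure D2:**
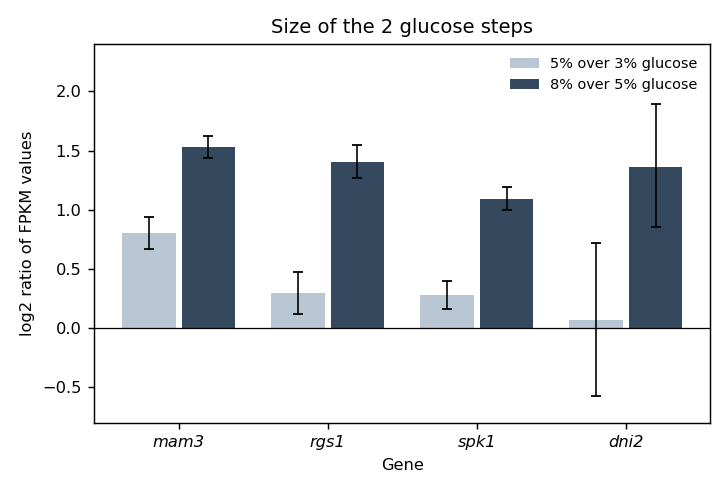
Bars give the log2 ratio of FPKM values for 5% over 3% glucose (light) and 8% over 5% glucose (dark) for mam3, rgs1, spk1 and dni2, with 95% Clopper-Pearson intervals for counting error as error bars. The dark bar is the taller in each gene because the tables list these genes for the second step only, and for dni2, with 41 counts in T1 and 45 in T2, the interval of the first step includes 0.

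The mating-type M entry stood apart. Mc is an HMG-box protein that defines the M cell type. The entry had 455.36 counts (163.9 FPKM) in T1, 1.2 counts (0.41 FPKM) in T2 and 0 counts in T3. Only the T1 sample held more than a trace of it. The T3 level was at least 157-fold lower than that of T1, against a floor of 3 counts (1.04 FPKM) in the T3 library. In T2 it was 399.7-fold lower than in T1, with a 95% interval of 85.6 to 18970 that is wide because T2 rests on 1.2 counts. That interval includes 157, and no ratio of T3 to T2 is given, as both are under 3 counts, so the values give no order between T2 and T3. The decrease ranked first among 132 lower genes of the T3 vs T1 table and first among 26 lower genes of the T2 vs T1 table, where 29.9% of genes were lower in T2.

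The identity of this entry limits the reading of those values. Its accession belongs in assembly ASM294v3 to mat3-Mc at chrII:2132849-2133394, a donor copy in the silenced mating-type region. The files describe it as M-specific polypeptide mc 1, but give mc 2 as its best protein match, so they do not settle the copy. The expressed locus holds a second copy, mat1-Mc, at chrII:2114482-2115027, which has no entry here. The study's text calls the entry itself mat1-Mc. Its direction is taken from the count and FPKM columns, whose T1 values are the same in both tables that list it, while the authors' own ratio in the T2 vs T1 table runs T1 over T2. Both coding sequences have 546 bases on the plus strand and differ at 0 positions. The identity goes on for 382 bases before the start codon and 395 bases after the stop codon, a run of 1323 bases. The ends of both coding sequences are printed from RefSeq to show that a read from either copy has the same letters, with start and stop codons in capitals.
mat3-Mc, chrII:2132849-2132908: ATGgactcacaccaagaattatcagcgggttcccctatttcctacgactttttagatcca
mat1-Mc, chrII:2114482-2114541: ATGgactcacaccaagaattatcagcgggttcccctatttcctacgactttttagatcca
mat3-Mc, chrII:2133335-2133394: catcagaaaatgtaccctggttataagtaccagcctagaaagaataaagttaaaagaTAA
mat1-Mc, chrII:2114968-2115027: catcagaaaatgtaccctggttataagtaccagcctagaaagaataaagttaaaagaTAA
The T1 count of 455.36 is not whole, as estimates become when reads are divided among like sequences, and such counts were seen in 32 of the 444 entries but in no other gene of mating and pheromone response. Counts assigned to mat3-Mc and to mat1-Mc therefore cannot be told apart, and the values do not show that Mc RNA as a whole was lower in T2 or T3. The genes mam2 and mam3, which Mc is known to activate, were higher in T3 than in T1 in the same libraries. A link between their values and the level of Mc was not tested.

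A wider list of 48 genes of pheromone signalling and mating was then examined, of which 44 are in the assembly. Between T3 and T1, 11 of them had an entry, with 10 higher in T3 and 1, mat3-Mc, lower, beside the 64.0% and 36.0% of the whole table. The median of the 10 was 2.52-fold, close to the 2.57-fold of all 235 higher genes, but their levels were higher. In the higher library the median was 102.6 FPKM for the 10 genes and 23.9 FPKM for all higher genes. Since mam2, mam3 and rgs1 are among the 10, they count for part of both medians. For the other 37 no entry was matched, and they have no value here. As a base for these counts, the T3 vs T1 table lists 367 genes, and the assembly search below covered 5144 genes. Whether the lists hold more entries than other genes was not tested, as they were written with earlier results of these data known.

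Among pheromones and their handling, 2 of 11 genes had an entry. The gene mam4, of the enzyme that methylates M-factor, had 174.6 FPKM in T3 and 86.6 FPKM in T1. The ratio was 2.02 (95% interval 1.83 to 2.23), near the limit of 2-fold. The gene sxa2, of a carboxypeptidase that breaks down P-factor, had 28.8 FPKM (302 counts) in T3 and 13.2 FPKM (136 counts) in T1, a ratio of 2.18 (1.78 to 2.69). The M-factor genes mfm1, mfm2 and mfm3 and the M-factor transporter gene mam1 had no entry. Among the 2 receptors, mam2 had an entry and map3, the M-factor receptor of P cells, had none.

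Of 13 genes of the G protein and its signalling, gpa1, rgs1, spk1 and ste6 were higher in T3 and none was lower. The alpha subunit gene gpa1 had 109.1 FPKM in T3 and 50.4 FPKM in T1, a ratio of 2.17 (95% interval 1.97 to 2.39). The gene ste6, of the exchange factor that activates Ras1, had 84.4 FPKM in T3 and 37.3 FPKM in T1, a ratio of 2.26 (2.06 to 2.49). The MAP kinase gene spk1 had 91.2 FPKM in T1, 110.5 in T2 and 236.0 in T3. Transcripts of the G protein alpha subunit and of its brake Rgs1 were thus both higher at 8%, with rgs1 having the larger ratio and intervals that did not overlap.

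For spk1 the T3 level was 2.59-fold above T1 (95% interval 2.41 to 2.78) and 1.09 above T2 on the log2 scale. However, 1525 of its 1973 bases in the assembly overlap hem4 on the opposite strand. The entry of hem4 was itself 2.13-fold above T1 in T3, at 97.8 FPKM in T1, 100.2 in T2 and 207.8 in T3. Without strand, the reads of this pair cannot be told apart. Noncoding RNAs on the opposite strand also cover all of mam4 and ste6 and most of dni1 in the assembly. They cover parts of gpa1 and sxa2, with 1427 of 2233 bases for sxa2. The protein-coding gene cox4 overlaps 138 bases of sxa2 on the opposite strand. The part of RNAs from these overlapping genes in the values was not tested. Neither mam2 nor dni2 has an overlapping gene in the assembly. However, the counted lengths differ from those of the assembly, at 1699 against 1235 bases for mam2 and 747 against 898 for dni2. Overlap of the gene models that were counted was not tested.

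Of 8 genes of agglutination and cell fusion, mam3, dni1 and dni2 were higher in T3. Dni1 and Dni2 are membrane proteins needed when mating cells fuse. The gene dni2 had 10.4 FPKM in T1, 10.9 in T2 and 28.2 in T3, that is 41, 45 and 114 counts. It differed little between T1 and T2, and its T3 level was 2.70-fold that of T1 (95% interval 1.88 to 3.96). The gene dni1 had 63 counts in T3 and 25 in T1 (2.45-fold, 1.52 to 4.06). Both intervals include ratios under 2, as do those of gpa1, mam4 and sxa2. A further entry, without a gene name in the assembly, best matches a cell-type specific agglutination protein. It had 2 counts in T3 and 21 in T1, a ratio of 0.0909 (0.0103 to 0.372).

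**Figure D3:**
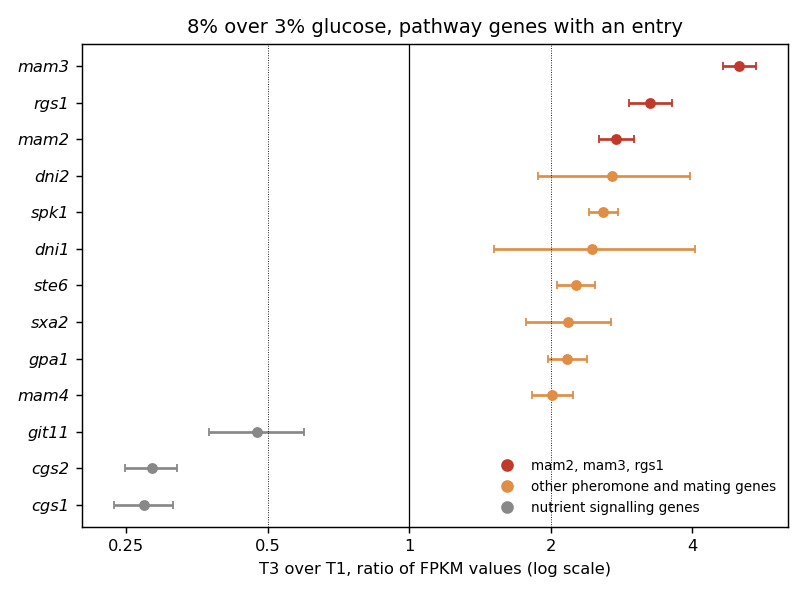
Ratio of FPKM values, T3 over T1 (log scale), for the genes of the lists that have reads in both libraries, with 95% Clopper-Pearson intervals for counting error. The 10 genes of pheromone response and mating lie to the right, between 2.02 and 5.04, and the 3 nutrient signalling genes git11, cgs2 and cgs1 lie to the left (dotted lines: 2-fold).

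In the T3 vs T2 table mam3, rgs1, spk1 and dni2 were higher in T3 and no gene of the 48 was lower, while 44.2% of all 181 genes were higher and 55.8% lower. The 4 genes had a median ratio of 2.61, and all higher genes of that table one of 2.38. None of them reached 4-fold, as 4.97% of the table did. In the T2 vs T1 table mat3-Mc was the only entry of the 48. The T3 library is shared by both comparisons with T3, so that they do not back each other up.

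Upstream of these genes, cAMP signalling by glucose restrains ste11 in fission yeast. Of 18 genes of nutrient signalling, T3 had less of cgs1, cgs2 and git11 than T1, and less of pka1 and cgs2 than T2. The gene cgs1, of the subunit that inhibits protein kinase A, had 17.7 FPKM in T3 and 64.9 FPKM in T1 (3.66-fold lower, 95% interval 3.17 to 4.24). The gene cgs2, of the cAMP phosphodiesterase, had 112.9 FPKM in T1, 86.6 in T2 and 32.0 in T3. For the kinase itself, pka1 had 101.7 FPKM in T3 and 220.1 FPKM in T2 (2.17-fold lower, 2.03 to 2.32). On the opposite strand, the noncoding RNA SPNCRNA.7505 overlaps 1777 of the 2307 bases of cgs2 in the assembly, and ret2 overlaps 496. Noncoding RNAs on the opposite strand also overlap parts of cgs1. The part of these overlapping genes in the cgs1 and cgs2 values was not tested. Lower genes made up 36.0% of the whole T3 vs T1 table and 55.8% of the T3 vs T2 table, and with so few entries the list cannot be set apart from them. Neither ste11 nor any of 9 genes of entry into meiosis, such as mei2, had an entry.

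The sequence before each start codon was searched for the TR box, from which Ste11 is known to drive many of these genes. The letters TTCTTTGTT were searched on both strands within 1000 bases before the start codon, and 6.30% of 5144 genes in the assembly hold them. Among the 11 entries, 7 hold them, namely rgs1, spk1, ste6, mam4, dni1, dni2 and mat3-Mc. The shorter core CTTTGTT, which lies inside these letters, is held by 31.6% of all genes and by all 11 entries. Of all named entries in the tables, 8.04% hold the longer and 35.9% the shorter form. As the genes were chosen for their role, these shares are a description.

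Sites of the 4 genes are printed because they show how rgs1, with 3 full matches, differs from mam2 and mam3, with none. In this rgs1 is not alone, since spk1 and mat1-Mc hold as many full matches. For mam3 the nearest of its 3 core matches is shown, which lies inside the transcript annotated in the assembly. The rgs1 sites lie before the rgs1 transcript annotated there. However, the counted length of rgs1 was 2829 bases against 2088 in the assembly. Whether these sites lie inside the counted gene model was not tested. Each line gives 30 bases read in the direction of the motif, with the matched letters in capitals.
rgs1, 560 bases before the start codon, chrI:679606-679635, plus strand: gctacctgttTTCTTTGTTctgctttctca
rgs1, 501 bases before, chrI:679665-679694, plus strand: ttgcacaatgTTCTTTGTTccgttaaagtt
rgs1, 458 bases before, chrI:679708-679737, plus strand: atttaatgatTTCTTTGTTtaaaagaaagc
mat3-Mc, 65 bases before, chrII:2132774-2132803, plus strand: gtttttgggtTTCTTTGTTctgtaagtagt
mam2, 130 bases before, core only, chrI:4780546-4780575, minus strand: caataattcctCTTTGTTtagaatttccag
mam3, 336 bases before, core only, chrI:1860459-1860488, minus strand: aacgacgaagaCTTTGTTttagtactagta
The mat3-Mc site lies inside the run shared with mat1-Mc, which has the same site at the same distance. A match in letters does not show that a factor binds there. Only exact letters were searched, so elements that differ from both forms would be missed. Whether the matches bear on the ratios of these genes was not tested.

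**Figure D4:**
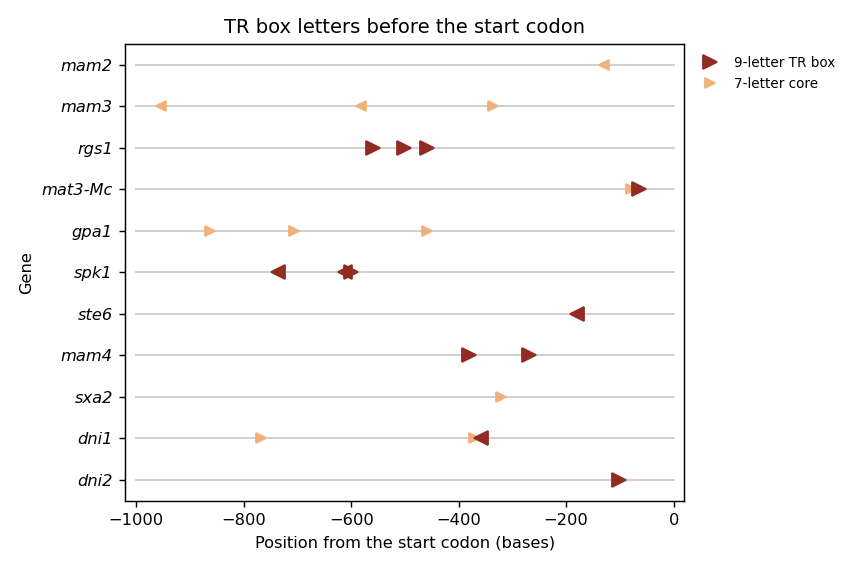
Position of each match before the start codon (0) for the 11 genes with an entry, arrowheads pointing right for matches in the direction of the gene and left for the opposite strand. The 9-letter TR box (dark) is seen in 7 genes and 3 times each before rgs1 and spk1, while mam2, mam3, gpa1 and sxa2 hold the 7-letter core (light) only.

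Genes with the most similar pattern were sought by the distance of log2 ratios T2 over T1 and T3 over T1, with 1 FPKM added, over the 177 genes with values in all 3 libraries. Nearest to mam3 were SPAC959.06c (distance 0.165), mug72 (0.248), snx3 (0.312), yhb1 (0.359) and nod1 (0.387). The mug72 gene had 3.16 FPKM in T1, 5.13 in T2 and 18.1 in T3, far below mam3 in level. Nearest to rgs1 were med13 (0.0818), apc15 (0.0926), rib2 (0.117), SPAPB24D3.07c (0.155) and SPBC530.02 (0.158). The mat3-Mc entry had no close match, since the nearest, SPAC959.11, was at 6.43. By the log2 ratio of T3 to T1 alone, over 2 libraries, the13, clp1 and egt1 were nearest to mam2. No pheromone or mating gene was among these matches. In the search over 3 libraries few could be, since among such genes only mam3, rgs1, spk1, dni2 and mat3-Mc have all 3 values. None of the protein-coding genes directly beside mam2, mam3, rgs1 or mat3-Mc on the chromosome had an entry.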

How the data were processed

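Per the paper's methods, the authors filtered the reads, aligned them to the genome with BWA and to genes with Bowtie, and estimated expression with RSEM. Of the genome build, the sources used here name none. The deposited files, 3 workbooks of 2 sheets with the second a subset of the first, hold expected counts, fractional where RSEM split reads, and FPKM values that the authors computed from those counts. A count of 0 is written as 0.001 FPKM and was treated as 0. The tables' own log2 ratios, p-values and FDR values were not used.

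The first sheets were joined by accession. Of 444 entries, 387 were named through RefSeq assembly ASM294v3 and 28 by their description, and 29 remained unnamed, among which list genes may have been missed. Folds were computed with Python 3.11.15, pandas 2.3.3 and scipy 1.17.1. Their intervals were run on simulated Poisson counts, which hold counting error alone. That check says nothing on differences between cultures or on reads split among like sequences. Library fragments were fitted from counts, FPKM values and lengths. Genes named were the 4 genes, list members with an entry, the nearest patterns and chromosomal neighbours. An entry matched to an agglutination protein, hem4 and the genes of the closing section were named after their values were seen. The 4 genes, the lists and the motif were chosen with earlier results of these data known. The alternatives were a pseudocount of 1 FPKM, count ratios with and without library scaling, a floor of 1 count, a 4-fold limit, a minimum of 10 FPKM and the second sheets.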

Additional observations from a re-analysis of the deposited data

How the results depend on the processing

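The ratios of mam2, mam3 and rgs1 kept their direction and stayed within their counting intervals with a pseudocount of 1 FPKM and with ratios of counts, whether or not scaled by library fragments. The mat3-Mc bound of T3 vs T1, -7.29 on the log2 scale, became -8.88 with a floor of 1 count, and its T2 vs T1 value of -8.64 became -6.87 with the pseudocount. With a limit of 4-fold, 2 of 14 pathway genes remained for T3 vs T1, namely mam3 and mat3-Mc, and 0 of 6 for T3 vs T2. A minimum of 10 FPKM, a pseudocount and the second sheets left the counts of 14, 1 and 6 genes for T3 vs T1, T2 vs T1 and T3 vs T2 as they were. No ratio could be formed for mam2 with T2 or for mat3-Mc in T3 vs T2. No paired analysis was possible because each concentration had 1 library. Depth limits mat3-Mc in T2 and T3, and the unnamed agglutination entry, dni1 and dni2.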

Other observations

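Genes named mug or meu, which were first described as upregulated in meiosis, did not share a direction, and their split was near that of the tables between T3 and each other sample. They were grouped by name after their values were seen. Between T3 and T1, 7 of 10 such genes were higher in T3, as were 64.0% of the whole table, with mug72 at 5.71-fold (95% interval 4.12 to 8.09), mug184 at 3.90-fold (2.66 to 5.86) and mug137 at 3.79-fold (2.67 to 5.52). The 3 lower genes were mug114, meu10 and mug35. Between T2 and T1, all 5 were higher in T2, beside 70.1% of the table, with mug114 at 6.48-fold (5.37 to 7.87) and mug108 at 3.22-fold (2.97 to 3.50). Between T3 and T2, 3 of 8 were higher and 5 were lower in T3, beside 44.2% and 55.8% of the table. The gene mug108 had 130.3 FPKM in T1, 420.0 in T2 and 97.4 in T3, so that it was highest at 5% glucose, unlike mam3 and rgs1.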
